A study of Mus musculus with 9 samples.

Results

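Müller glia span the whole retina and keep the space around its neurons in order. The 10 genes that carry this work were followed here: the glutamate and glutamine genes Glul, Slc1a3, Slc1a2, Slc38a3 and Glud1, the potassium channel genes Kcnj10 and Kcnj2, the water channel genes Aqp4 and Aqp1, and the bicarbonate cotransporter gene Slc4a4. They were chosen by name for these functions, with earlier results of these data known. All 10 of the 10 were found in both deposited tables, among 16367 genes measured in sorted retinal cells and 17035 genes measured in cultures, and all 10 also passed the filter on low values that left 14403 genes for testing.

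The study measured RNA by sequencing in 9 mouse libraries, 3 in each of 3 groups, under a title that concerns gliosis of Müller cells in ocular hypertension. Sham animals, of wild-type genotype like the others, received a corneal cut without oil. In the ocular hypertension (OHT) animals 1.2 µL of silicone oil was placed in the front chambers of both eyes, which blocks outflow and raises the pressure inside the eye. Neural retinas of these 2 groups, pooled by 4, were dissociated with papain, depleted of dead cells, and captured with a magnetic antibody to GLAST. The sources used here do not give their age or the time after the oil. GLAST is the product of Slc1a3, itself 1 of the 10 genes, and retinal astrocytes carry it too, so the presence of Slc1a3 RNA in the sorted cells is what the capture selects for. The primary cultures were grown untreated from C57BL/6J pups of postnatal day 8 to 10, in medium with serum on gelatin, and were passaged. Since each sorted library is 1 pool, p-values measure the spread between pools.

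When neurons fire, glutamate and potassium ions build up outside them. Müller glia take up the glutamate through sodium-driven transporters and convert it to glutamine, which leaves the cell and returns to neurons to be made into transmitter again. Potassium enters through inwardly rectifying channels and is released toward blood vessels and the vitreous, and water follows through aquaporins that sit beside these channels in the endfeet. Sodium bicarbonate cotransport helps buffer the acid that neural activity produces. Loss or relocation of these channels and enzymes is a known feature of reactive Müller glia.

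Depth was 37.8 to 44.5 M reads (M for 1000000) in the sham libraries, 47.1 to 53.6 M in the OHT libraries and 66.3 to 76.7 M in the cultures. The sorted libraries held RNA of many cell types. Levels are given here as ppm, reads per 1000000 reads of a library. The summed level of 10 Müller glia markers outside the 10 genes (Rlbp1, Dkk3, Sox9, Sox2, Lhx2, Gpr37, Abca8a, Rdh10, Crym and Hes1) was 1960 to 5210 ppm in sham and 1072 to 2114 ppm in OHT libraries, with no marker at 0. The summed level of 13 microglia and macrophage markers, which the capture does not target, was 24482 to 38303 ppm in sham and 29796 to 40369 ppm in OHT. Rod photoreceptor markers summed to 2883, 27132 and 21901 ppm in sham replicates 1, 2 and 3 and to between 1001 and 3604 ppm in OHT. Sham replicate 1 therefore stood with the OHT libraries and apart from the other sham libraries in rod RNA, and also in astrocyte markers, at 13.6 ppm against 745 and 1314 ppm. All 10 Müller glia markers had a lower mean log2 value in OHT than in sham on the deposited scale. So did 13 of 13 rod, 8 of 8 endothelial and 5 of 5 each of the tested astrocyte, neuron and mural and fibroblast markers. Of the 13 microglia and macrophage markers, 3 were lower. Over all 14403 tested genes 54.8% were lower. Without overlap of the groups, 6 of the 13 microglia and macrophage markers were higher, where 9.26% of all tested genes were. Lower without overlap were 3 of 10 Müller glia, 2 of 13 rod, 1 of 8 endothelial and 2 of 5 mural and fibroblast markers. The astrocyte and neuron lists had 0 each, and over all tested genes 9.18% were so. No marker passed the adjusted threshold. In such mixed libraries fewer cells of a type and less RNA per cell cannot be told apart.

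**Figure D1:**
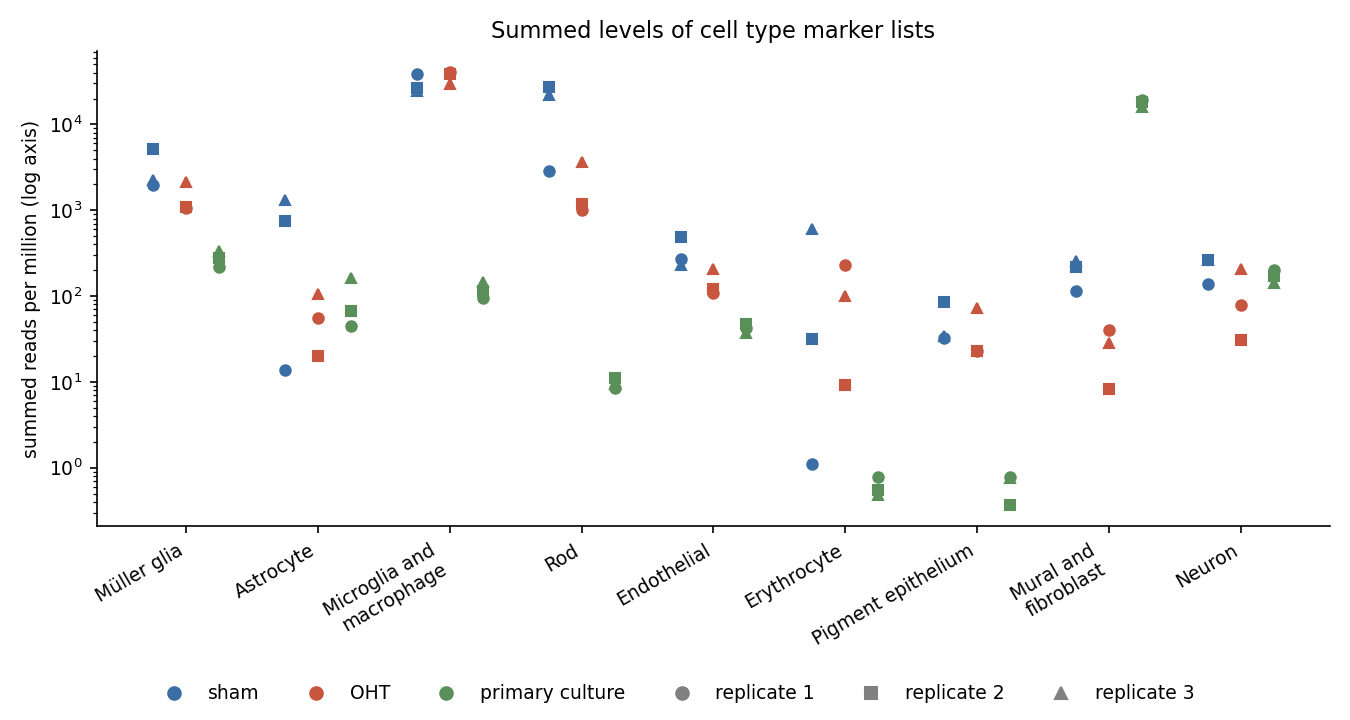
Summed ppm (log axis) of 9 lists of cell type markers, 1 point per library, with colour for the group and shape for the replicate number. Microglia and macrophage markers exceed Müller glia markers in every sorted library, and the cultures are highest in the mural and fibroblast list.

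Promoters of 3 genes are printed first, because these genes mark the extremes of the comparisons that follow: Glul had the highest level per length of the 10 in sorted cells, Kcnj10 had the greatest deficit in cultures, and Aqp1 the greatest excess there. Each sequence is the 250 bases before the RefSeq transcription start (GRCm38.p6), 5′ to 3′ on the strand of the gene. The windows are chr1:153899679-153899928 for Glul, chr1:172340960-172341209 for Kcnj10 and chr6:55336049-55336298 for Aqp1, all on the forward strand. Capitals mark each match, on either strand, to GGGCGG (the GC box), CCAAT (the CCAAT box) or TATAAA (the TATA box). The RefSeq start of Aqp1 lies upstream of the start in the GENCODE M21 annotation.
Glul: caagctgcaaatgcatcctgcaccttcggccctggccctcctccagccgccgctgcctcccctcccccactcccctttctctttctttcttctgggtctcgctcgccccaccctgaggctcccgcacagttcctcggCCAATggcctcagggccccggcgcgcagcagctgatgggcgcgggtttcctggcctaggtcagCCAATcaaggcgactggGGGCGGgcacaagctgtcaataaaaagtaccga
Kcnj10: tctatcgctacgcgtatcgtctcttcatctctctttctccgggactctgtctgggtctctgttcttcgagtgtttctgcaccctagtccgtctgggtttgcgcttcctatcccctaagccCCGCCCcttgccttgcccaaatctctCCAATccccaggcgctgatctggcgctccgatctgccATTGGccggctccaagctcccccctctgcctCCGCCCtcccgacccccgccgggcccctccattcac
Aqp1: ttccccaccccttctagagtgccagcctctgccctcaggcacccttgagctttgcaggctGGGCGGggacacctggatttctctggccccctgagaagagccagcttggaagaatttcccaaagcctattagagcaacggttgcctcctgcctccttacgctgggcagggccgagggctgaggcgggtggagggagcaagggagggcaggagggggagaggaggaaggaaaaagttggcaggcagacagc

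Glul held 1 GC box and 2 CCAAT boxes, and Kcnj10 held 2 of each, counting both strands. Aqp1 held 1 GC box and no CCAAT box in its window, and TATAAA was found in none of the 3. Among all 32851 windows of this length in the RefSeq table, 32.7% held GGGCGG, 33.8% held CCAAT and 12.4% held TATAAA. The windows of Glul and Kcnj10 held 15 and 17 CpG pairs, above the median of 6 over all windows, while that of Aqp1 held 5. These matches are a description of the letters and not of sites in use. Promoters of 8 of the 10 genes were in the table, all but Slc38a3 and Aqp4.

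Levels of different genes were compared per kilobase of transcript. In sham cells Glul led at 1934 ± 1043 ppm per kb (SD, n = 3), followed by Slc1a3 at 202 ± 112, Aqp4 at 112 ± 51.0 and Glud1 at 95.5 ± 8.56 ppm per kb. Slc1a2 and Slc38a3 came next at 27.5 ± 14.2 and 27.2 ± 11.4 ppm per kb, and Kcnj10 stood at 7.42 ± 4.51. Aqp1, Slc4a4 and Kcnj2 were the lowest, at 5.44 ± 3.82, 1.69 ± 1.48 and 1.17 ± 0.593 ppm per kb. The sham range of Glul lay wholly above that of Slc1a3. Ranges of Slc1a3 and Aqp4 overlapped in sham libraries, as did those of Aqp4 and Glud1, Slc1a2 and Slc38a3, Kcnj10 and Aqp1, Aqp1 and Slc4a4, and Slc4a4 and Kcnj2, so these neighbours did not differ beyond their spread over libraries. Within each sham library, though, Slc1a3 was above Aqp4 and Aqp1 above Slc4a4, in 3 of 3. The order depends on the transcript length taken. With the longest transcript in place of the median one, Glul stayed first at 472 ± 254 ppm per kb, Glud1 moved ahead of Aqp4, at 53.8 ± 4.82 against 28.2 ± 12.9, and Slc1a2 dropped to position 8.

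Glul encodes glutamine synthetase, the enzyme that turns glutamate and ammonia into glutamine. On the deposited scale of normalised counts it measured 45779, 82142 and 29379 in sham replicates 1, 2 and 3 and 32576, 22912 and 47626 in the OHT replicates. Sham replicate 2 was highest and OHT replicate 2 lowest, but OHT replicate 3 exceeded both other sham libraries, so the groups overlapped. The log2 difference of OHT to sham was -0.55 (SE 0.44), with an adjusted p of 0.605 in limma's test over all 14403 genes.

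Slc1a3 encodes GLAST (EAAT1), the main glutamate uptake carrier of Müller glia. Its normalised counts were 10886, 31534 and 16984 in sham and 9198, 6681 and 13495 in OHT. Both groups met between OHT replicate 3 and sham replicate 1, with the other sham libraries above every OHT library. The log2 difference was -0.94 (SE 0.43), a 2.02-fold lower mean in OHT, with an adjusted p of 0.428 (limma).

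Slc1a2 encodes the second glial glutamate transporter, GLT-1 (EAAT2), which in the retina is found mostly in photoreceptors and bipolar cells. It measured 1428, 3381 and 1654 in sham and 2759, 634 and 2557 in OHT. Within OHT alone the libraries differed 4.35-fold, and 2 OHT libraries lay above 2 of the sham libraries. The log2 difference of -0.28 (SE 0.58, limma adjusted p = 0.850) was smaller than this spread.

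Slc38a3 encodes SNAT3, the carrier through which Müller glia release glutamine. It measured 1455, 3643 and 2995 in sham and 731, 887 and 778 in OHT. Every sham library lay above every OHT library, and the OHT libraries differed by only 1.21-fold among themselves. Its mean was 3.38-fold lower in OHT, with a log2 difference of -1.66 (SE 0.44), and the gene ranked 105 of 14403 by limma's unadjusted p. The limma adjusted p over all genes was 0.332, so the difference did not pass the threshold of 0.05. edgeR's quasi-likelihood test on the recovered reads gave an adjusted p of 0.422, and DESeq2 on the same reads gave 0.0189. Over all 22 alternatives its adjusted p ran from 0.0189 to 1.00. Rod markers were also lower in OHT. Among sham libraries Slc38a3 was lowest in replicate 1, the rod-poor one, at 1455 against an OHT maximum of 887. Fitted together with the mean log2 value of the rod markers, Slc38a3 differed by -0.90 (SE 0.67, limma adjusted p = 1.00), against -1.66 without them. The part of rod RNA in this difference was not tested.

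Glud1 encodes glutamate dehydrogenase, a mitochondrial enzyme present in most cell types. Over the 6 sorted libraries together its range was the narrowest of the 10, at 2.30-fold. It measured 7438, 7609 and 6966 in sham and 6587, 8284 and 3595 in OHT. The sham libraries differed by 1.09-fold only, while OHT replicate 3 stood below the rest. It differed by -0.34 on the log2 scale (SE 0.36, limma adjusted p = 0.705), and by 0.01 without that library.

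**Figure D2:**
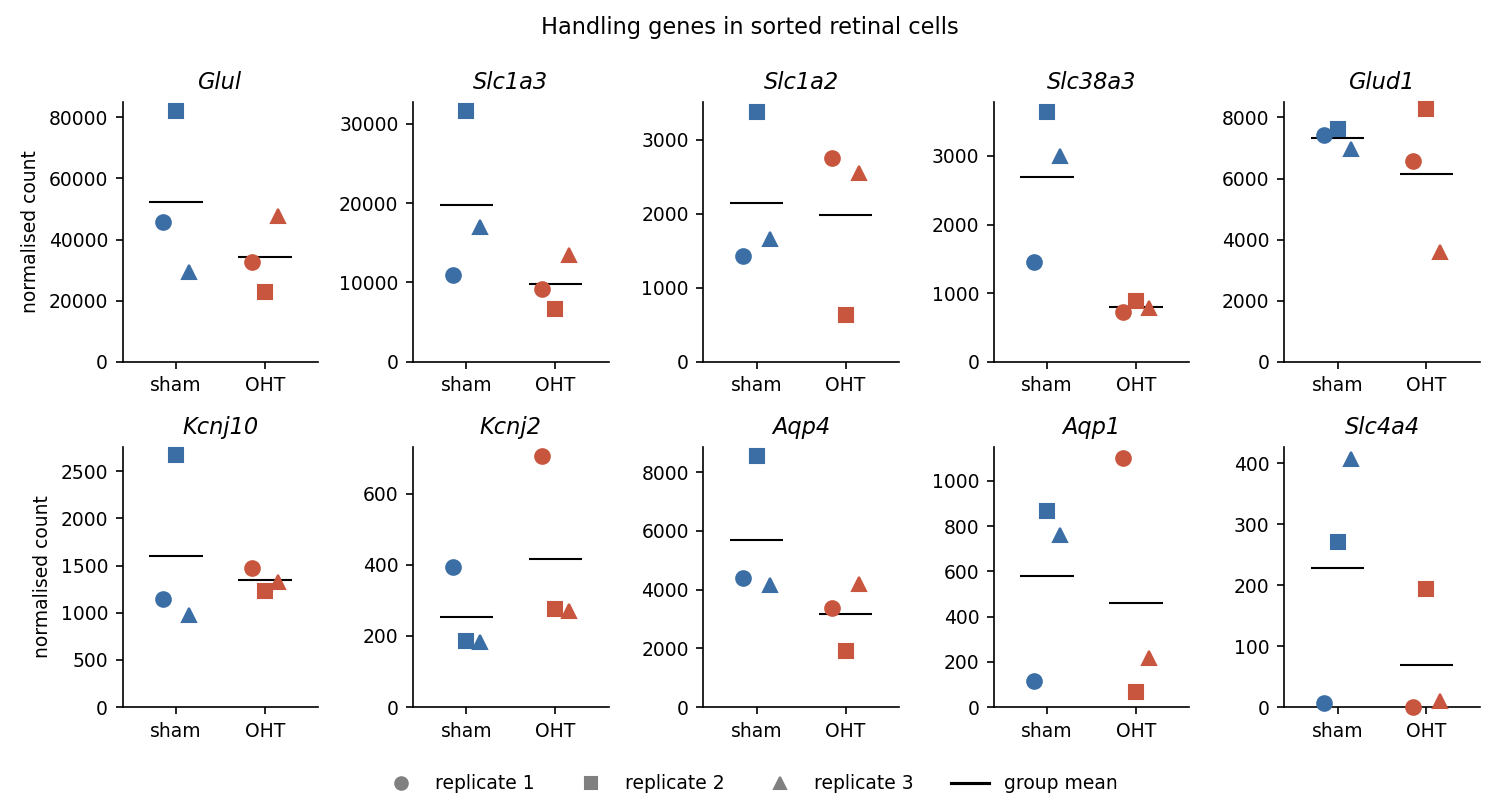
Normalised counts of the 10 genes in the sorted libraries, 1 panel per gene with its own axis from 0, symbols for replicate numbers and a line at the group mean of 3 libraries. Slc38a3 is the only panel in which sham and OHT libraries do not overlap, and sham replicate 2 is the highest library in 6 of the 10 panels.

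Around these genes, 25 other genes of glutamate, glutamine and GABA handling were examined, a list that holds neuronal carriers as well as glial ones. Of the 24 that passed the filter none passed the adjusted threshold. At an unadjusted p under 0.05 there were 7 lower and 0 higher in OHT, where over all genes 6.3% were lower and 5.37% higher. These shares also stand behind the counts of the lists that follow. The list had a median log2 difference of -0.35 against -0.12 for all genes. Slc6a11, which encodes the GABA transporter GAT3 of Müller glia, had the smallest p of the list. It measured 955, 3118 and 2356 in sham and 200, 421 and 335 in OHT, a log2 difference of -2.65 (SE 0.56, limma adjusted p = 0.332) with no overlap of the groups. Slc6a6, the taurine transporter and the most abundant of the list, differed by -0.62 (SE 0.45, adjusted p = 0.575). The gene with the smallest p in the other direction was Slc7a11, the cystine-glutamate exchanger, at 1.24 (SE 0.81, adjusted p = 0.544).

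Kcnj10 encodes Kir4.1, the inward rectifier that carries most of the potassium conductance of Müller glia. Its normalised counts were 1149, 2675 and 976 in sham and 1473, 1232 and 1329 in OHT. All OHT libraries lay inside the sham range and within 1.20-fold of each other. The log2 difference of -0.10 (SE 0.45, limma adjusted p = 0.929) rested on sham replicate 2, without which it was 0.34. Kcnj2 encodes Kir2.1, a strong inward rectifier. It was the only member with a higher mean in OHT, at 394, 185 and 182 in sham against 706, 276 and 271 in OHT. Replicate 1 was the high library in both groups, and sham replicate 1 exceeded 2 of the OHT libraries. It differed by 0.66 on the log2 scale (SE 0.68, limma adjusted p = 0.692).

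A list of 21 further potassium genes, made of Kir channels, background and calcium-activated channels and chloride cotransporters, gave 18 genes for the test. No gene passed after adjustment, and 6 had an unadjusted p under 0.05, all lower in OHT. Of these 6, Kcnj3, Kcnj6 and Kcnn2 had low means, at 14.4, 13.4 and 12.9 normalised counts. Their means were 0.715, 0.658 and 0.643 ppm in sham and 0, 0.0062 and 0 ppm in OHT. They thus passed the filter on low values through the sham libraries. The median log2 difference of the list was -0.97. Kcnk13, a background channel also known in microglia, was the most abundant and differed by -0.03 (SE 0.47, adjusted p = 0.981). Kcnj14, encoding Kir2.4, had the smallest p. It measured 479, 3674 and 4170 in sham and 41.5, 336 and 264 in OHT, a log2 difference of -3.64 (SE 0.95, limma adjusted p = 0.332) without overlap. Like the rod markers it was far lower in sham replicate 1 than in the other sham libraries, and the part of rod RNA in this difference was not tested. Kcnj13, encoding Kir7.1, had the smallest p among higher genes, at 0, 94.1 and 144 in sham and 40.1, 389 and 103 in OHT, a log2 difference of 2.30 (SE 1.77, limma adjusted p = 0.596).

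Aqp4 encodes the orthogonal-array water channel of Müller glial endfeet. Its normalised counts were 4394, 8531 and 4149 in sham and 3366, 1902 and 4198 in OHT. The groups overlapped by a narrow margin, since OHT replicate 3 lay just above sham replicate 3. The mean was 1.80-fold lower in OHT, a log2 difference of -0.84 (SE 0.42, limma adjusted p = 0.454).

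Aqp1, a water channel that adult retina is known to carry mainly in photoreceptors and some amacrine cells, was scattered over the libraries. It measured 115, 865 and 763 in sham and 1100, 68.3 and 219 in OHT, so the highest and the lowest library were both OHT libraries, 16.1-fold apart. On the log2 scale Aqp1 differed by -0.73 (SE 1.05, limma adjusted p = 0.774). Slc4a4 encodes the sodium bicarbonate cotransporter NBCe1. Its normalised counts were 6.20, 270 and 407 in sham and 0, 194 and 10.4 in OHT. Each group held libraries at 10.4 or less and libraries at 194 or more. The count of 0 reads in OHT replicate 1 allows up to 3 reads, or 0.0630 ppm, in counting error alone. The log2 difference of -2.83 had an SE of 2.02 (limma adjusted p = 0.570).

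Among 19 other genes of water transport, volume regulation and the anchoring complex of Aqp4, 16 were tested. No gene passed after adjustment, 3 had an unadjusted p under 0.05, all lower, and the median log2 difference was -1.20. Mlc1, a membrane protein of glial endfeet and the most abundant of the list, measured 3490, 18133 and 11318 in sham and 4278, 2529 and 4196 in OHT. Sham replicate 1 lay between the OHT libraries and the other sham libraries were above them (log2 difference -1.33, SE 0.53, limma adjusted p = 0.385). Lrrc8a, a subunit of the volume-regulated anion channel, differed by 0.86 (SE 0.54, adjusted p = 0.531). Of 15 genes for bicarbonate, pH and lactate, 13 were tested, none passed after adjustment, and 1 had an unadjusted p under 0.05. This was Slc16a1, which encodes the lactate carrier MCT1, at 2476, 5770 and 3961 in sham and 1646, 2285 and 894 in OHT, without overlap (log2 difference -1.36, SE 0.45, limma adjusted p = 0.343). Bsg, its membrane partner, differed by -0.46 (SE 0.41, adjusted p = 0.642), and Slc16a7 by 0.96 (SE 0.56, adjusted p = 0.505). The median of that list was -0.38. On the scale of Müller glia markers described below, the medians of the glutamate and the bicarbonate lists turned positive, to 0.55 and 0.52, and those of the potassium and water lists were -0.07 and -0.30, where the median of all genes was 0.77. Once GC content and length were corrected for, the medians of the glutamate, potassium, water and bicarbonate lists were 0.14, -0.37, -0.72 and -0.10, where that of all genes was 0.16.

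In all, 9 of the 10 genes had a lower mean log2 value in OHT, where 54.8% of all 14403 genes did, and their median log2 difference was -0.64 against -0.12. At the adjusted threshold 0 of the 10 were called, and over all genes limma called 0.0%. Over all genes 1680 had an unadjusted p under 0.05 by limma and 1575 by edgeR, which called 0 after adjustment, and DESeq2 called 250. An unadjusted p under 0.05 was reached by 1 of the 10 in the lower direction, against 6.3% of all genes, and by 0 in the higher direction, against 5.37%. Groups did not overlap for 1 of the 10, with OHT below sham, where 9.18% of all genes were so. For OHT above sham the counts were 0 of 10 and 9.26%. The shares of calls and of separated genes among the 10 were thus near the background. The count of lower genes was 7 without sham replicate 2, the library with the highest value for 6 of the 10, and 7 without OHT replicate 2, the library with the lowest value for 5.

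The levels of Glul, Slc1a3 and Aqp4 were then set beside those of the other Müller glia markers, whose mean log2 value was 0.89 lower in OHT than in sham (12.14 against 11.25). After each library was scaled by this mean, the median of all genes moved to 0.77, and directions on this scale are relative to the markers. Slc1a3 then differed by -0.04, Aqp4 by 0.05 and Glul by 0.35, so these 3 were lower by about as much as the markers or less. Slc38a3 remained lower, by 0.76 on the log2 scale (SE 0.67, limma adjusted p = 0.515), at -1.10, -0.97 and -0.47 relative to the markers in sham and -2.11, -1.13 and -1.60 in OHT. The groups still did not overlap, where 1.88% of all genes had OHT below sham without overlap, but the gap between sham replicate 1 and OHT replicate 2 was only 0.027 on the log2 scale. Kcnj10 was higher relative to the markers in each OHT library than in any sham library, at -1.44, -1.42 and -2.09 in sham and -1.10, -0.65 and -0.83 in OHT (difference 0.79, SE 0.67, limma adjusted p = 0.499). On this scale 27.3% of all genes were higher in OHT without overlap, and the difference of Kcnj10 was close to the median of all genes. Slc1a2, Glud1, Aqp1 and Kcnj2 also lay above 0 on this scale, at 0.62, 0.56, 0.16 and 1.56, and Slc4a4 stayed below it at -1.93.

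**Figure D3:**
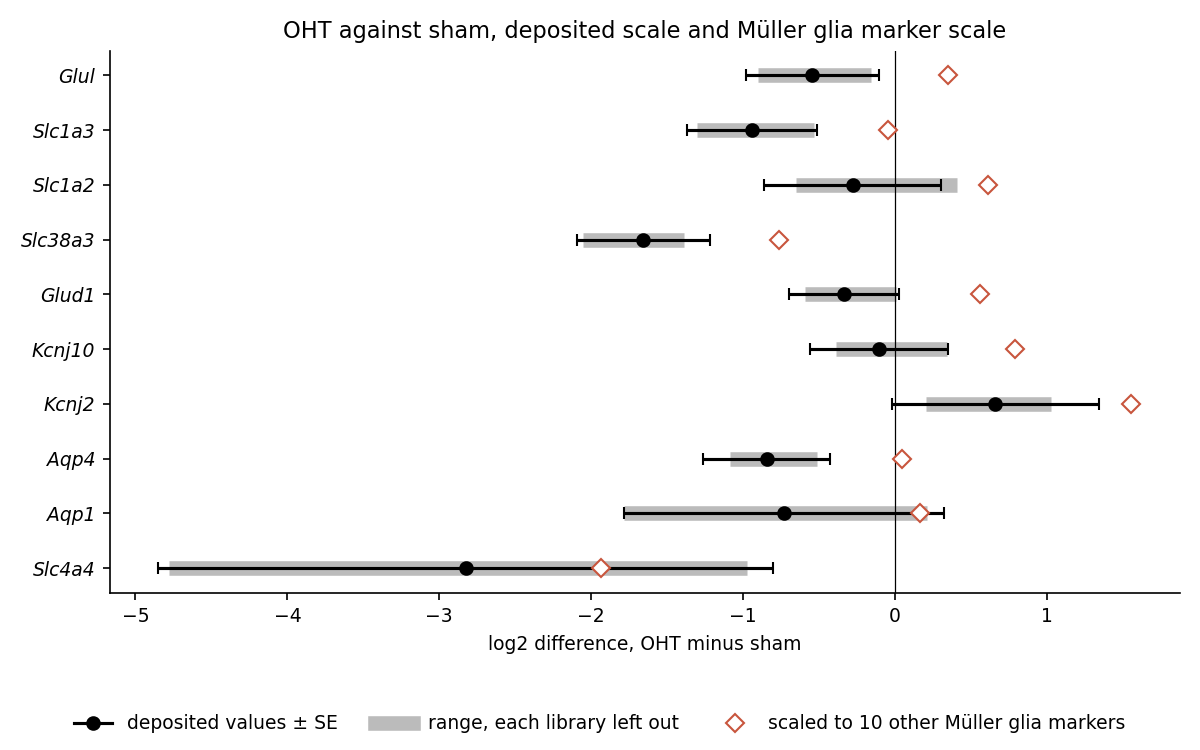
Log2 difference of OHT minus sham for the 10 genes. Black points with SE bars use the deposited values, grey bars span the values with each library left out in turn, and open diamonds use values scaled to 10 other Müller glia markers, for which Slc1a3 and Aqp4 lie near 0 and Slc38a3 stays below it.

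Ratios between genes of a library, taken after adding 1 to each value, depend little on its scaling factor where counts are high. Of 8 ratios compared between OHT and sham, that of Kcnj10 to Aqp4 was the only one without overlap. Its log2 value was -1.93, -1.67 and -2.09 in sham and -1.19, -0.63 and -1.66 in OHT, with OHT replicate 3 just above sham replicate 2. The difference was 0.74, with an exact two-sided permutation p of 0.1, the smallest that 3 against 3 libraries can give, and 0.64 after adjustment over the 8 ratios. The ratio of Slc38a3 to Glul, glutamine release against glutamine synthesis, differed by -1.11 (exact permutation p = 0.2, adjusted p = 0.64). Glul to Slc1a3 was 1.82, 1.78 and 1.82 in the OHT libraries but 2.07, 1.38 and 0.79 in sham, a difference of 0.39 within the sham spread (exact permutation p = 0.4). Slc1a2 to Slc1a3 differed by 0.66 and Kcnj2 to Kcnj10 by 0.77, each with an exact permutation p of 0.4. Glul to Glud1 differed by -0.21 (exact permutation p = 0.8), and Aqp1 to Aqp4 by 0.11 (exact permutation p = 1). For Slc4a4 to Kcnj10 the difference was -2.72 (exact permutation p = 0.5), over values from -7.32 to -1.26 in sham and from -10.53 to -2.66 in OHT. The value of -10.53 belongs to OHT replicate 1, where Slc4a4 had 0 reads, so it is set by the added 1 and is no measured ratio.

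In the primary cultures most of the 10 genes stood far below the sorted cells and 2 stood above. Sorted cells and cultures differ in age, preparation and passage and come from separately normalised tables, so levels in ppm are set side by side without a test. Kcnj10 measured 0.256, 0.542 and 0.156 ppm in the 3 cultures against 40.1 ± 24.4 ppm in sham cells (SD, n = 3), a 126-fold lower mean. Slc38a3 was at 1.45, 1.11 and 0.417 ppm against 66.7 ± 27.9, or 67.3-fold lower, and Slc1a2 at 0.950, 0.740 and 0.730 ppm against 53.8 ± 27.9, or 66.7-fold lower. Aqp4 followed with 1.93, 2.66 and 3.13 ppm against 142 ± 65.0, 55.3-fold lower. Transcripts of Kir4.1, the glutamine carrier and Aqp4 were thus present in cultures at a few ppm or less.

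The main uptake and synthesis genes were lower in cultures but still well detected. Glul measured 24.9, 35.9 and 48.2 ppm in cultures, 36.2-fold below the sham mean of 1317 ± 710 ppm. Slc1a3 measured 23.9, 31.5 and 49.6 ppm, 14.1-fold below 493 ± 274 ppm, and Kcnj2 was 9.79-fold lower. Each of these 7 genes was lower in all 3 cultures than in any of the 6 sorted libraries. Among 12875 genes listed for both sorted cells and cultures and with a mean of at least 1 ppm, 18.9% were so. Genes not listed for the cultures did not enter this share. Kcnj10, Kcnj2, Slc1a2 and Slc38a3 had culture means under 1 ppm, so they passed this filter through the sorted libraries. Glud1 overlapped with the sorted cells, at 82.2, 123 and 104 ppm in cultures against 128 ± 52.1 ppm in OHT and 182 ± 16.4 ppm in sham.

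Aqp1 was the reverse case. It reached 1307, 1774 and 1592 ppm in the cultures, 109-fold above the sham mean of 14.3 ± 10.0 ppm, and the lowest culture was 59.4-fold above the highest sorted library. Per kilobase it was the first of the 10 in cultures, at 593 ± 89.5 ppm per kb, ahead of Glud1 at 53.8 ± 10.6 and Glul at 53.4 ± 17.2. With the longest transcript Aqp1 stayed first, and Glud1 and Glul were at 30.3 ± 5.98 and 13.0 ± 4.19 ppm per kb. Slc4a4 measured 14.8, 21.9 and 19.5 ppm, 3.39-fold above the sham mean of 5.53 ± 4.84 ppm. These 2 of 10 genes were above all sorted libraries, where 36.9% of the same 12875 genes were. In ratios within a library, log2 Aqp1 to Aqp4 was 9.25 ± 0.23 in cultures (SD, n = 3) and -3.66 ± 1.44 in sham cells. For Kcnj2 to Kcnj10 the log2 ratio was 1.08 ± 1.10 against -2.60 ± 1.16. Its culture values were 0.42, 0.47 and 2.34, so the mean leaned on culture replicate 3. Both genes were low in cultures, at means of 0.649 ppm for Kcnj2 and 0.318 ppm for Kcnj10.

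Marker lists moved with this comparison. The 10 other Müller glia markers summed to 216 to 336 ppm in the cultures. Dkk3 alone made up 162, 214 and 269 ppm of these sums, and Rlbp1, a defining marker, was at 2.24 ppm against 1192 ppm in sham cells. The 7 mural and fibroblast markers, led by the smooth muscle actin gene Acta2 and the collagen gene Col1a1, summed to 16146 to 19116 ppm in cultures and to 113 to 256 ppm in sham. Rgs5, a pericyte gene of this list, went the other way, at 3.04 ppm in cultures and 172 ppm in sham, where it made up most of the sum. Microglia and macrophage markers summed to 94.3 to 147 ppm in cultures. The part of cell composition in the levels of the 10 genes was not tested.

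**Figure D4:**
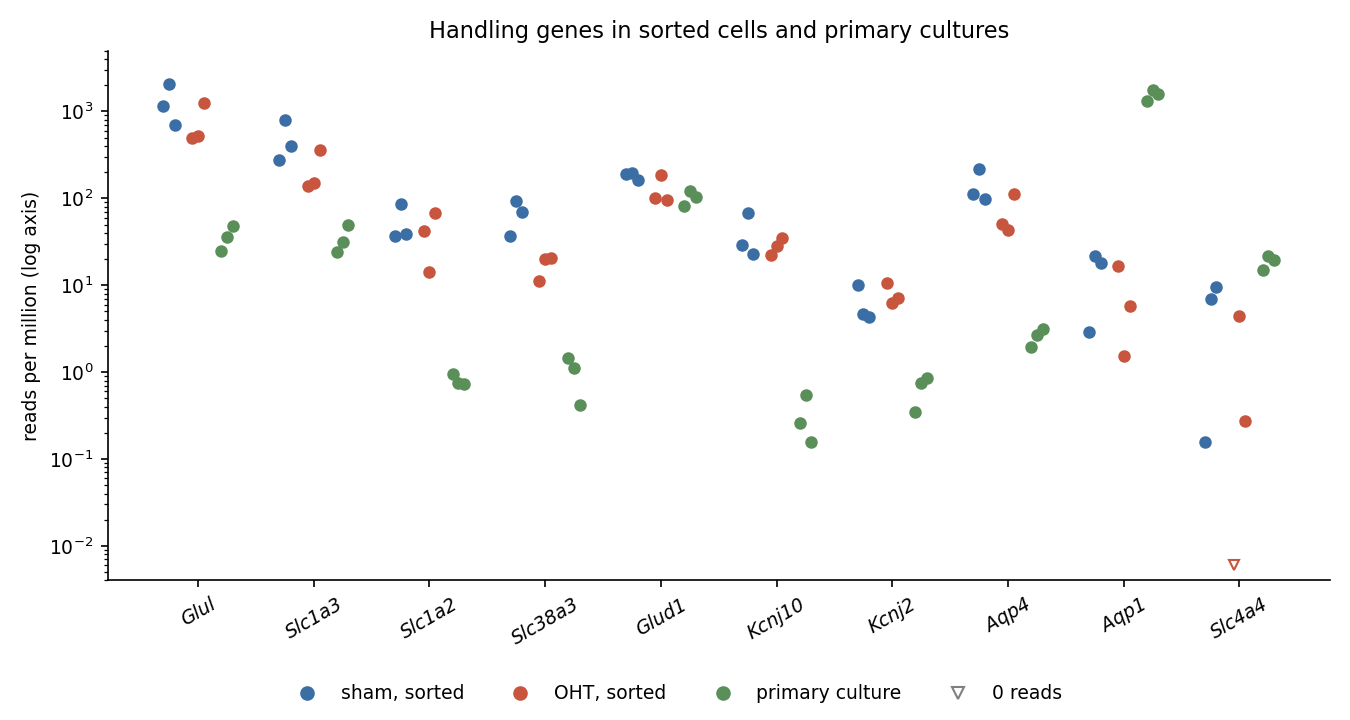
Level in ppm (log axis) of the 10 genes in each sorted library and each primary culture, with an open triangle for a library with 0 reads. Aqp1 and Slc4a4 are higher in all 3 cultures than in any sorted library, Glud1 overlaps, and the other 7 are lower in all 3 cultures.

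Across the 6 sorted libraries, the genes with the pattern most like each member were found by Pearson's r of log2 values among 11529 genes with a mean of at least 100. Glul was most like Rhoc (r = 0.985), and Rlbp1, the retinaldehyde-binding protein gene of Müller glia, stood at position 4 (r = 0.965). Slc1a3 was most like Trpm3 (r = 0.998), with Rlbp1 at position 101 (r = 0.912). Aqp4 was most like Mettl26 (r = 0.982), with Rlbp1 at position 12 (r = 0.966). The 100 genes most like Slc1a3 held 5 rod and 2 Müller glia markers, and those most like Slc38a3 held 2 and 1. For Glul and for Aqp4 the counts were 0 and 3. Endothelial markers among these 100 numbered 1 for Glul, 1 for Slc1a3, 2 for Aqp4 and 0 for Slc38a3. Among the 10 themselves, Aqp4 and Slc1a3 were closest to each other (r = 0.937). Slc38a3 was most like Epas1 (r = 0.998), and its r with Rlbp1 was 0.648. Slc1a2 was most like Snhg18 (r = 0.994), Kcnj10 most like Rbbp9 (r = 0.977) and Aqp1 most like H2bc4 (r = 0.994). Glud1 and Kcnj2 went with Fbxo4 (r = 0.995) and Polr2h (r = 0.996), and their r with Rlbp1 was -0.04 and -0.38. Slc4a4 was closest to Zfp653 (r = 0.996). With 6 libraries that share group, depth and cell makeup, and so many candidate genes, high values of r arise readily, so these are given as descriptions only.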

How the data were processed

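RNA of 9 libraries was sequenced as 150 bp paired ends. Per the submitters' processing notes the tools were bcl2fastq 2.20, Trim Galore 0.6.6, FastQC 0.11.9 and STAR 2.7.1a with the build mm39. For the counting program and the normalization the entry is: not given in the sources used here. Per the deposited values, the authors' signal is a gene count divided by 1 factor per library: dividing by its smallest step gave whole reads for 100% of values within 0.05 reads, which for culture replicate 3 is no independent check. Genes and lists were chosen with earlier results of these data known.

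OHT and sham were compared with limma 3.58.1 (variance trend, R 4.3.3) on log2(value + 1) for genes with a mean of at least 10, at a Benjamini-Hochberg adjusted p threshold of 0.05. This scale understates changes of low genes. Alternatives used edgeR 4.0.16 and DESeq2 1.42.0 on recovered reads. The code was tested on simulated data. All 10 genes were named. Of each pathway list the text names genes past the threshold, the most abundant, and the smallest p per direction among genes with a mean of at least 100. Transcript lengths are medians over protein-coding GENCODE M21 transcripts (GRCm38), whose build differs from the authors', so coordinates belong to RefSeq windows only. The main comparison used no pairing by replicate number.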

Additional observations from a re-analysis of the deposited data

How the results depend on the processing

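Limma called 0 genes with the deposited scaling and 1 with the microglia list as a covariate. After scaling to Müller glia markers, where the prior degrees of freedom were infinite, limma called 469 (450 higher, 19 lower). DESeq2 on recovered reads called 250 and gave no adjusted p for 510 genes. Leaving out each library gave 0 to 12 limma calls (12 without sham replicate 1, 7 without sham replicate 3). Deviations from the group means correlated between libraries of the same replicate number with r from -0.06 to 0.06. Between different numbers r ran from -0.09 to 0.15. With 3 libraries per group this cannot exclude a shared batch. The replicate block gave 2 calls, and 1 with the GC and length correction. That correction with the block was an alternative chosen after seeing the data, as was edgeR with the block, with 0. Under the block 0.25 was the smallest exact p that a ratio could give. Lower genes among the 10 numbered 3 on the marker scale, 5 with the rod covariate and 10 with the microglia covariate. They numbered 8 with the GC and length correction, and 7 to 9 with each library left out. Genes without overlap numbered 2 with quantile normalization, 2 on the marker scale and 1 to 4 with each library left out, where 16.6%, 29.2% and 22.2% to 36.6% of all genes were so.

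On the marker scale Glul turned to 0.35, Slc1a2 to 0.62, Glud1 to 0.56, Kcnj10 to 0.79, Aqp4 to 0.050 and Aqp1 to 0.16. With the rod covariate Slc1a3 turned to 0.080, Slc1a2 to 0.68, Kcnj10 to 0.26, Kcnj2 to -0.18, Aqp1 to 1.38 and Slc4a4 to 0.17. Kcnj2 was -0.083 with the microglia covariate, and Kcnj10 was 0.42 with the GC and length correction, with or without the block. With each library left out, Slc1a2 ranged from -0.65 to 0.41, Glud1 from -0.59 to 0.011, Kcnj10 from -0.39 to 0.34 and Aqp1 from -1.78 to 0.21. The log2 ratio difference ranged from -0.82 to 0.31 for Glul to Glud1 and from -0.85 to 0.73 for Aqp1 to Aqp4. Slc38a3 was lower in all 22 alternatives, from -2.05 to -0.76, and passed the threshold in DESeq2 alone. Counts of genes below (7) and above (2) the sorted libraries in cultures kept within 1.5 times under every alternative run. The causes were not tested. The value of Slc4a4 in OHT replicate 1 was the only one of the 10 genes that rested on 0 reads.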
